A study of Mus musculus with 4 samples.

Results

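CTCF peaks that were called in the medial ganglionic eminence (MGE) and had no overlapping peak in the telencephalon sample are described here. They were chosen from the measured peak lists by 4 criteria: a place on chromosomes 1 to 19, a width of 245 bp or more (above the narrowest width in the MGE list, which many peaks share), no overlap of 1 bp or more with any telencephalon peak, and a midpoint inside a gene or within 100 kb of one. The rule kept 3983 of the 25710 MGE peaks, and the 2 lists together hold 57689 peaks. The MGE sample was an anti-CTCF ChIP-seq library of the dissected MGE at embryonic day 13.5, and the telencephalon sample was an anti-CTCF library of telencephalon at the same labelled age. No genotype, strain or treatment is given in the labels. Each tissue had 1 CTCF library and 1 input library, and the input libraries are not analysed here.

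CTCF is a zinc finger protein that binds a long DNA motif and halts the cohesin complex as it extrudes chromatin loops, so that its sites mark many loop anchors and domain borders. The MGE is the ventral part of the embryonic telencephalon from which many interneurons migrate into the cortex, among them those that later make parvalbumin or somatostatin. Most CTCF sites of a genome are known to be occupied in many tissues, and a smaller set differs between cell types.

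The lists give the start and end of each peak and nothing on its height, so the values here are positions, widths and counts. The telencephalon and MGE libraries were made with different kits, and the calling threshold of either list is not given, so that tissue, kit and calling cannot be told apart in any difference between the lists. The track names end in p01 for MGE and p001 for telencephalon, and whether these stand for unlike calling thresholds is not stated. With 1 library per tissue no test between tissues was possible. Intervals are exact 95% Clopper-Pearson intervals for shares and exact Poisson intervals for densities, and cover counting error only. Whether MGE tissue was part of the telencephalon sample is not given in the labels.

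At gene starts, promoter windows that MGE-only peaks overlap were searched for the CTCF core. Sequences come from the RefSeq promoter windows of GRCm38.p6 (the coordinates of mm10), which run from 250 bases before to 50 bases after an annotated start. MGE-only peaks overlapped 71 of these windows, through 57 separate peaks. The 12-letter core of the CTCF consensus was sought on both strands. Shorter 7-letter forms that lie within the core were sought on their own, also on both strands: AGGGGGC was searched as the first of them, AGGTGGC was searched as another form, and AGATGGC was searched as the last. A window with an exact core can thus count under both. The windows below belong to peaks at genes named in the later paragraphs, the widest peaks first, except that Mup-ps12 is left out because only 5 bases of its window, with 33.7% G and C, lay under the peak. Capitals mark a stretch that differs from the core by no more than 1 letter, and a window without capitals held none.

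Elovl1, a fatty acid elongase gene (chr4:118427843-118428142, plus strand, 215 bases under a 626 bp peak): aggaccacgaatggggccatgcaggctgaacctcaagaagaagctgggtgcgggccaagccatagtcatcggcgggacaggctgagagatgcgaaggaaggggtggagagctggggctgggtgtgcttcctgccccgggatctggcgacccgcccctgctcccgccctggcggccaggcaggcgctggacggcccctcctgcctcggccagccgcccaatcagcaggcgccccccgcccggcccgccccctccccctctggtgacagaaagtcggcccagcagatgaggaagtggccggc
Gnai1, an inhibitory G protein subunit gene (chr5:18360364-18360663, minus strand, 224 bases under a 498 bp peak): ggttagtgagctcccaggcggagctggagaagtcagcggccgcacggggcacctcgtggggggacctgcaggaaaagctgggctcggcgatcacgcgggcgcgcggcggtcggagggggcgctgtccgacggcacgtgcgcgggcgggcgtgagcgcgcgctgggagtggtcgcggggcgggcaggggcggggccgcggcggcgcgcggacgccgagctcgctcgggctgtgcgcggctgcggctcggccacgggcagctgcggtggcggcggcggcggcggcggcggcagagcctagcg
Smarcc2, a subunit gene of the BAF chromatin remodelling complex (chr10:128458986-128459285, plus strand, all 300 bases under a 474 bp peak): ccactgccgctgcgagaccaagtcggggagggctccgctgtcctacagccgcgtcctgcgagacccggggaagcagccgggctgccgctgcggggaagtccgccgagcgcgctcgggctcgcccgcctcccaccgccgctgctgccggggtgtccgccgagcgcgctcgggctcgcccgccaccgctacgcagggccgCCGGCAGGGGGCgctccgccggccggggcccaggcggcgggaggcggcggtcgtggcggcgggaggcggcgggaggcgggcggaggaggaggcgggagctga
Cacna1c, an L-type calcium channel gene (chr6:119108446-119108745, minus strand, 167 bases under a 352 bp peak): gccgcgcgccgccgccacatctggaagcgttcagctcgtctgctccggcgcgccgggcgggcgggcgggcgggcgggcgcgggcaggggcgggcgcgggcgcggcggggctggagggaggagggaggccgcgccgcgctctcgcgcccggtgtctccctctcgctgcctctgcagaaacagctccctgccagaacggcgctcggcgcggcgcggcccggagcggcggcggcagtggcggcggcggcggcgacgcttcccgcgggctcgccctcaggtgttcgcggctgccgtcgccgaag
Dab1, an adaptor gene of reelin signalling (chr4:104367288-104367587, plus strand, 133 bases under a 318 bp peak): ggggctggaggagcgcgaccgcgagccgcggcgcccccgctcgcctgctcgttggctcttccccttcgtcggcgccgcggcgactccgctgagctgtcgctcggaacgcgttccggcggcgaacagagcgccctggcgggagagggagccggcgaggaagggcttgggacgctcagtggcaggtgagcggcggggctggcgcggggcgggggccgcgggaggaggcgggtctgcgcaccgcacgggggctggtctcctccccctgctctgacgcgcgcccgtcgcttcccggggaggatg

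The windows shown were rich in G and C, with 70.7% in Elovl1, 80.0% in Gnai1, 81.0% in Smarcc2, 81.3% in Cacna1c and 77.3% in Dab1. Only the Smarcc2 window held a near match to the core, at position -52 from the annotated start and under the peak. The Elovl1 and Gnai1 windows each held a 7-letter form without the rest of the core, and the Cacna1c and Dab1 windows held none. For comparison, the window of Lsm11, a histone pre-mRNA processing gene, lay wholly under a shared peak of 676 bp (chr11:45944575-45945250). It was chosen after its values were seen, as the widest shared peak that covers a whole window with an exact core, and the capitals here mark that core.

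Lsm11 (chr11:45944886-45945185, minus strand): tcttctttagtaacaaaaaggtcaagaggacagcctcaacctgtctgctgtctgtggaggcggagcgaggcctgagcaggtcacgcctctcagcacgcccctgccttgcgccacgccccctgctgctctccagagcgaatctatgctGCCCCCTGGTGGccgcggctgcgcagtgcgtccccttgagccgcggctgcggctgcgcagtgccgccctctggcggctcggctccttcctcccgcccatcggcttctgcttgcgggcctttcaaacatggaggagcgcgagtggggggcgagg

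None of the 57 MGE-only peaks on promoter windows had an exact core in the window, which allows a share of up to 5.26% at the limit of 3 counts. Among shared MGE peaks of 245 bp or more the count was 109 of 933 (11.7%, interval 9.69 to 13.9%), and among telencephalon-only peaks of the same width range 9 of 400 (2.25%, 1.03 to 4.23%). Among peaks of 245 to 349 bp the core was found for 0 of 31 MGE-only peaks, which allows up to 9.68%, and for 30 of 316 shared peaks (9.49%), so that a difference within this class was not detectable at these counts. With up to 1 mismatch the core was found for 8 of 57 MGE-only peaks (14%, 6.26 to 25.8%), 369 of 933 shared peaks (39.5%, 36.4 to 42.8%) and 69 of 400 telencephalon-only peaks (17.2%, 13.7 to 21.3%), and within the class of 245 to 349 bp for 4 of 31 MGE-only peaks (12.9%, 3.63 to 29.8%) and 107 of 316 shared peaks (33.9%, 28.7 to 39.4%). The search covered whole windows, and for 2 of the 8 MGE-only peaks, at Gm40002 and Gm42111, the near core lay outside the peak. In windows with 150 or more bases under a peak, those bases alone held a near core in 7 of 46 MGE-only windows (15.2%, 6.34 to 28.9%). The counts were 385 of 867 shared windows (44.4%) and 67 of 336 telencephalon-only windows (19.9%). These counts treat windows as independent, although the MGE-only windows of Gm42107 and Rufy3 lay under the same peak and held the same near core. A 7-letter form was found for 22 of 57 MGE-only peaks (38.6%, 26.0 to 52.4%), 467 of 933 shared peaks (50.1%) and 139 of 400 telencephalon-only peaks (34.8%).

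Counted by window, the exact core was in 0 of the 71 MGE-only windows, 11.5% of shared windows, 2.14% of telencephalon-only windows and 0.574% of all 31363 windows of this length. The near core was in 12.7% of MGE-only windows, 37.2% of shared windows, 16.1% of telencephalon-only windows and 4.41% of all windows, and a 7-letter form in 32.4%, 48.3%, 32.8% and 21.5%. Windows under MGE-only peaks had a median GC content of 67.3%, against 62.0% under shared peaks, 60.3% under telencephalon-only peaks and 53.0% over all windows. The ratio of observed to expected CpG dinucleotides had medians of 0.817, 0.763, 0.756 and 0.388 in the same sets. Windows free of any peak, weighted to the GC classes of the MGE-only windows, held the near core in 3.34% of cases and a 7-letter form in 27.5%. A match in these letters is a description and does not show binding, and a window without one says nothing of the bases outside it.

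**Figure D1:**
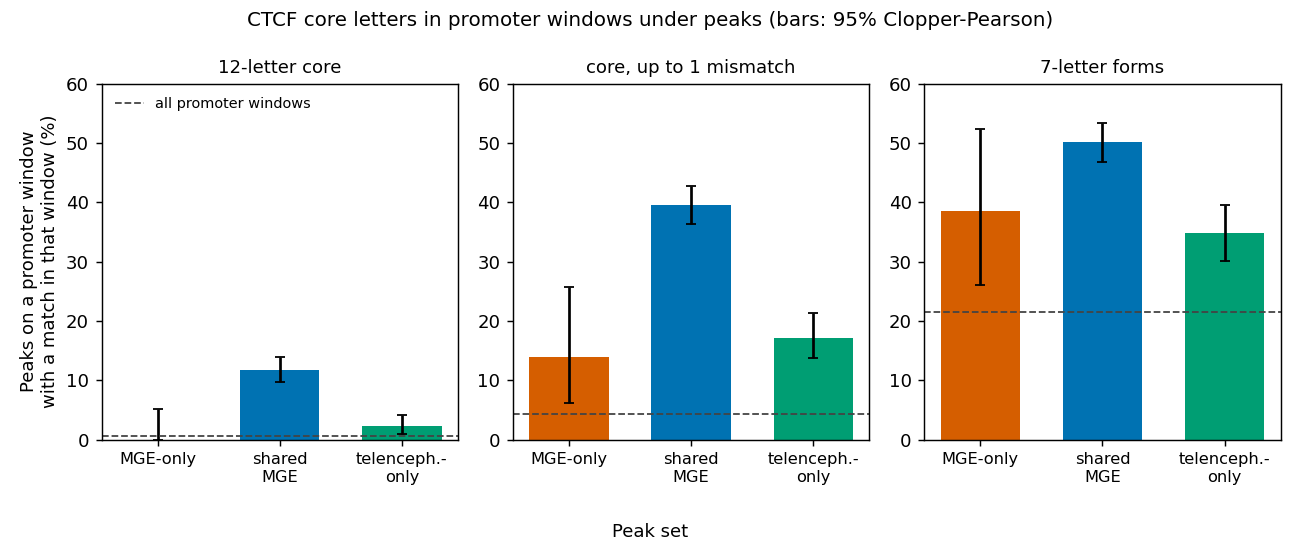
Share of peaks (%, y axis) that overlap a RefSeq promoter window with a match to the CTCF core, to the core with up to 1 mismatch, or to a 7-letter form, for MGE-only, shared MGE and telencephalon-only peaks of 245 bp or more (x axis). Bars are exact 95% intervals, or the limit of 3 counts where the count is 0, and the dashed line is the share of single windows over all windows. The exact core is at 0 of 57 for MGE-only peaks and at 11.7% for shared peaks.

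MGE-only peaks were narrower than shared ones, a property that is tied to how they were chosen. The 17262 MGE peaks of 245 bp or more within reach of a gene divided into the 3983 MGE-only peaks (23.1%) and 13279 shared peaks. The middle 50% of MGE-only peaks spanned 271 to 348 bp around a median of 303 bp, up to a highest value of 824 bp, and that of shared peaks 304 to 421 bp around 357 bp. The MGE-only share was 41.6% among peaks of 245 to 274 bp and 9.45% among peaks of 400 bp or more. Just inside the width limit lay 43 members of 245 bp, and just outside it, 1 bp narrower, 5104 unshared peaks. At the other edge of the rule, 24 members lay under 100 bp from a telencephalon peak, while 4 shared peaks overlapped theirs by under 10 bp. The peak in Bcl11a, a zinc finger gene of cortical projection neurons, is such a case: its 337 bp peak (chr11:24093911-24094247) was 1 base short of a telencephalon peak.

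Most members were far from any telencephalon peak. The nearest one lay a median of 46175 bp away (interquartile range 15232 to 132969 bp), and 133 members (3.34%) had one within 1 kb. Unshared MGE peaks of the narrowest width were similar, with a median of 48514 bp and 2.80% within 1 kb, so that this distance is not particular to the members. Telencephalon-only peaks lay a median of 20468 bp from the nearest MGE peak, although the MGE list is the shorter one. Within the MGE list, the next MGE peak lay a median of 36641 bp from an MGE-only peak and 18533 bp from a shared one, and 39644 bp from an unshared peak of the narrowest width. MGE-only peaks had another MGE peak within 10 kb in 18.1% of cases (16.9 to 19.4%), against 35.0% (34.2 to 35.8%) for shared peaks and 16.8% for unshared peaks of the narrowest width.

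Gene ends, where CTCF often binds, held a smaller share of MGE-only peaks than of shared or telencephalon-only peaks. Per Mb, MGE-only peaks were about as dense there (1.75) as over all stretches within 100 kb of a gene (1.78). Shared peaks (16.7 against 5.93) and telencephalon-only peaks (7.75 against 2.89) were denser at gene ends. Midpoints of 270 of 3983 MGE-only peaks lay within 1 kb of either end of a gene (6.78%, 6.02 to 7.60%), against 2571 of 13279 shared MGE peaks (19.4%, 18.7 to 20%) and 1194 of 6475 telencephalon-only peaks of 245 bp or more (18.4%, 17.5 to 19.4%). Elsewhere inside genes the shares were 49.0% of MGE-only peaks (47.4 to 50.5%), 46.2% of shared peaks and 47.8% of telencephalon-only peaks. Between genes lay 44.2% of MGE-only peaks (42.7 to 45.8%), 34.5% of shared peaks and 33.8% of telencephalon-only peaks. The unshared MGE peaks of the narrowest width, left out by the rule, had 6.01% at gene ends (5.38 to 6.70%), an interval that overlaps that of the members.

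The lower share at gene ends was found in every width class. MGE-only peaks of 245 to 274 bp lay at gene ends in 7.11% of cases and shared peaks of that class in 15.3%. At 400 bp or more the shares were 9.42% (6.87 to 12.5%) and 22.5% (21.3 to 23.8%). On the chromosomes with promoter windows, 118 of 3821 MGE-only peaks lay within 1 kb of an annotated start (3.09%, 2.56 to 3.69%) and 1442 of 12898 shared peaks did (11.2%, 10.6 to 11.7%). At the far ends of the same genes the shares were 1.75% of MGE-only peaks and 5.27% of shared peaks.

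**Figure D2:**
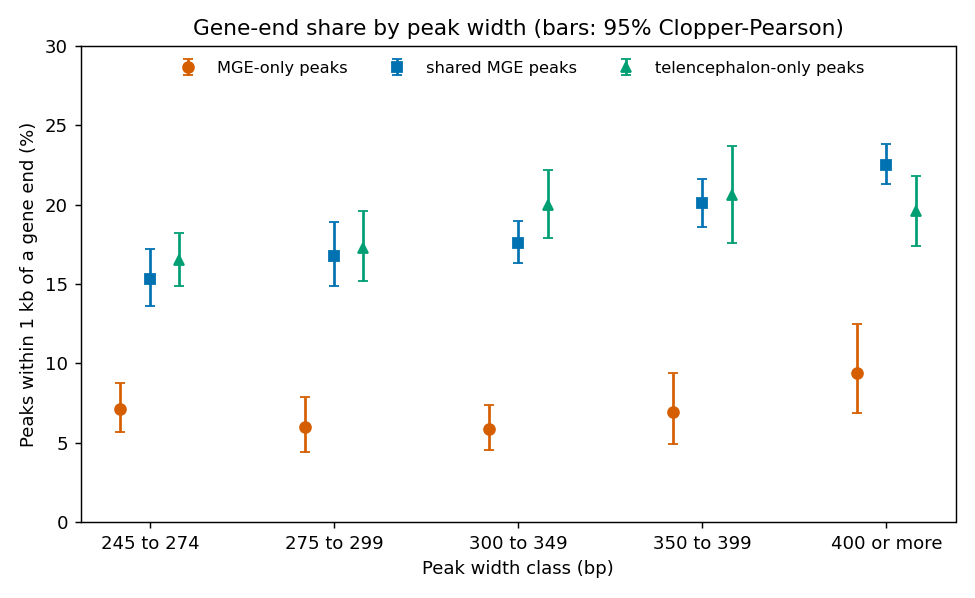
Share of peaks within 1 kb of a gene end (%, y axis) by peak width class (bp, x axis), with exact 95% intervals. MGE-only peaks stay between 5.85% and 9.42%, below shared MGE peaks (15.3% to 22.5%) and telencephalon-only peaks (16.5% to 20.6%) in every class.

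The density of MGE-only peaks differed little between gene-poor and gene-rich stretches, whereas that of shared peaks rose with the number of genes. Per Mb, MGE-only peaks numbered 1.75 within 1 kb of gene ends (interval 1.55 to 1.97), 1.78 inside genes and 1.78 over all stretches within 100 kb of a gene. Shared peaks numbered 16.7, 6.34 and 5.93 per Mb in the same stretches, and telencephalon-only peaks 7.75, 3.20 and 2.89. The unshared MGE peaks of the narrowest width numbered 1.99, 2.19 and 2.28 per Mb, so that the small differences are not particular to the wider members. At ends of protein-coding genes the densities were 1.98 per Mb (1.67 to 2.33) for MGE-only peaks and 23.9 per Mb for shared peaks. In bins of 1 Mb without a protein-coding gene there were 1.49 MGE-only peaks per Mb (1.35 to 1.63) and 0.502 shared peaks, and in bins with 20 or more such genes 1.5 MGE-only peaks (1.35 to 1.65) and 12.5 shared peaks. Unshared peaks of the narrowest width numbered 1.95 and 1.92 per Mb in these bins. The limit of 100 kb to a gene removed 478 unshared peaks and lowers the density in bins with no genes.

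**Figure D3:**
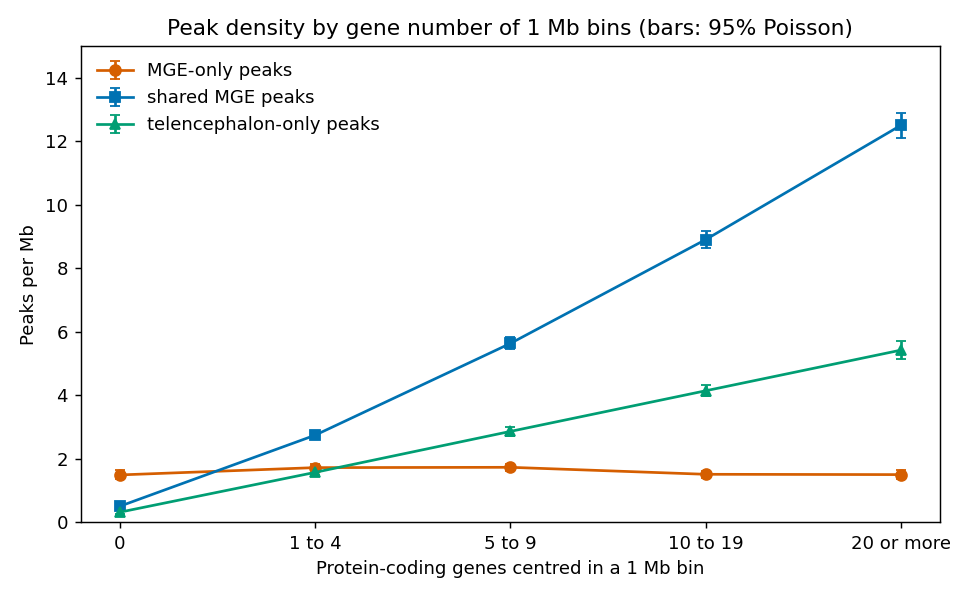
Peaks per Mb (y axis) in bins of 1 Mb grouped by the number of protein-coding genes centred in them (x axis), with exact 95% Poisson intervals. MGE-only peaks lie between 1.49 and 1.73 per Mb in every group of bins, and shared MGE peaks between 0.502 and 12.5.

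The same held from chromosome to chromosome. MGE-only density lay between 1.32 per Mb on chromosome 8 and 1.85 per Mb on chromosome 18, and shared density between 4.02 per Mb on chromosome 16 and 8.37 per Mb on chromosome 11. As a share of the wide MGE peaks, MGE-only peaks were lowest on chromosome 11 (14.9%) and chromosome 19 (16.6%), which have 13.2 and 12.1 protein-coding genes per Mb, and highest on chromosome 16 (30.4%, with 6.93 genes per Mb). Over the 19 chromosomes that share correlated with gene density at r = -0.83 (Pearson) and -0.88 (Spearman), a description over chromosomes of the same libraries. By distance, 9.50% of wide MGE peaks within 1 kb of a gene end were MGE-only (8.45 to 10.6%), 22.0% of those more than 5 and up to 20 kb away, and 56.4% of those more than 100 kb from the nearest end (51.2 to 61.5%).

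Clusters of olfactory and vomeronasal receptor genes, which encode odour and pheromone receptors of sensory neurons in the nose, were among the places where MGE-only peaks outnumbered shared ones. Within 10 kb of olfactory receptor genes there were 74 MGE-only peaks (3.26 per Mb, 2.56 to 4.09) and 39 shared ones (1.72 per Mb, 1.22 to 2.35). Around vomeronasal receptor genes there were 46 MGE-only peaks (2.82 per Mb, 2.07 to 3.76) and 7 shared ones (0.429 per Mb, 0.173 to 0.885). Both MGE-only densities lay above the 1.78 per Mb of all members. Unshared MGE peaks of the narrowest width were as dense within counting error, at 3.17 per Mb around olfactory (2.48 to 3.99) and 2.45 per Mb around vomeronasal receptor genes (1.75 to 3.34). Telencephalon-only peaks numbered 0.925 and 0.614 per Mb there, below their 2.89 per Mb near genes. These families hold many near-identical copies, in which the placement of reads is uncertain.

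The widest MGE-only peak measured 824 bp and lay between genes, 25665 bp from the pseudogene Gm15403 (chr17:91699002-91699825), with the nearest telencephalon peak 396934 bp away. Wide peaks inside genes were found in Arhgef12, a guanine nucleotide exchange factor gene (chr9:43006903-43007597, 695 bp), in Agps, a gene of ether lipid synthesis (chr2:75879797-75880475, 679 bp), and in Bmpr1a, a BMP receptor gene (chr14:34451489-34452111, 623 bp). The telencephalon list had peaks 6513 bp, 3110 bp and 6814 bp from these. In Pou3f2, a POU transcription factor gene of neural progenitors and upper-layer neurons, the peak (chr4:22482890-22483546, 657 bp) lay 1123 bp from a gene end and 4500 bp from a telencephalon peak. The peak at Elovl1 (chr4:118427928-118428553, 626 bp) covered an annotated start, with 90993 bp to the nearest peak of the telencephalon list. The others among the 12 widest were inside Gm3500 (619 bp), 2210408I21Rik (614 bp) and the lncRNA gene Gm29478 (611 bp), or 15371 bp from the lncRNA gene D030025E07Rik (690 bp), 62067 bp from the pseudogene Gm8604 (609 bp) and 40859 bp from Olfr1408 (606 bp).

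Among the 10 widest members within 1 kb of an end of a protein-coding gene, the distance to a telencephalon peak ran from 1577 to 351220 bp. Gm21188 (582 bp), Mup-ps12 (572 bp), Gm36079 (512 bp), Mterf1a (507 bp), Gm2016 (506 bp), the olfactory receptor gene Olfr733 (505 bp), Tdo2, a tryptophan oxygenase gene (486 bp), and Zfp978 (477 bp) were among them. For the genes here that belong to families of similar copies, such as Mup-ps12 and Olfr733, the placement of reads is uncertain. The remaining ones were Gnai1 (chr5:18360090-18360587, 498 bp), where the midpoint lay 75 bp from the gene end and 1577 bp separated the peak from a telencephalon peak, and Smarcc2 (chr10:128458938-128459411, 474 bp), where these distances were 8 bp and 3259 bp. The member farthest from any telencephalon peak (chr7:9308351-9308693) had the nearest one 1542167 bp away. It lay 84869 bp outside Vmn2r37, a vomeronasal receptor gene, and 17502 bp from the nearest end of any annotated gene. The second farthest (chr7:9217720-9218059) lay inside Vmn2r37, with the nearest telencephalon peak 1451536 bp away. The next were in the lncRNA gene Gm45942 (275 bp wide, 1434229 bp away), near the lncRNA gene Gm33042 (245 bp, 1245312 bp) and near the pseudogene Gm18265 (249 bp, 1241304 bp).

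Some MGE-only peaks stood in groups, which were not counted for other sets of peaks. Linking members up to 20 kb apart gave 170 groups of 2 or more with 349 peaks in all, and 8 groups held 3 or more. The largest had 4 peaks of 299 to 475 bp in 17.6 kb at chr16:3253974-3271539, far from any protein-coding gene, with no telencephalon peak inside. Groups of 3 without a telencephalon peak lay in Hapln1, which encodes a link protein of the hyaluronan matrix (10.4 kb, chr13:89569166-89579554), in Eml5, a microtubule protein gene (16.3 kb, chr12:98855607-98871869), and 256802 bp from Pcdh7 (16.9 kb, chr5:57442448-57459343). A group in Arhgap24, a GTPase activator gene, had 3 MGE-only peaks and 1 telencephalon peak in 20.2 kb (chr5:102195894-102216061).

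Of 20665 protein-coding genes, 1991 (9.63%) carried an MGE-only peak between their ends or in the 10 kb beyond either end. They were long: their median length was 62.6 kb, against 25.7 kb for genes with a shared peak of 245 bp or more and 17.5 kb for all protein-coding genes. An MGE-only peak was present for 4.02% of genes of up to 10 kb (3.58 to 4.49%) and for 59.5% of genes above 300 kb (55.2 to 63.7%). Per Mb of gene and flank these classes had 1.72 and 1.95 MGE-only peaks, against 16.4 and 3.28 shared peaks. A shared peak was also present for 949 of the 1991 genes (47.7%), and 566 (28.4%, 26.5 to 30.5%) had no telencephalon peak of any width in the window. Over all protein-coding genes, which are shorter, these shares were 41.6% and 36.6%. One such peak was found for 1679 of the genes, 2 for 215, and 3 or more for 97.

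The genes with the most MGE-only peaks were long, from 557 to 2271 kb. Macrod2, an ADP-ribose hydrolase gene of 1998 kb, had 9 MGE-only peaks beside 3 shared ones, and 8 telencephalon peaks lay in the same window. Erbb4, the neuregulin receptor gene that guides migrating interneurons (1077 kb), had 7 MGE-only peaks and no shared peak of that width, with 3 telencephalon peaks at other positions. The widest of the Erbb4 peaks measured 445 bp (chr1:68312062-68312506) and the others 250, 262, 270, 289, 304 and 316 bp, and between 15466 and 491881 bp separated them from the nearest telencephalon peak. Opcml, an IgLON adhesion gene (1135 kb), had 7 MGE-only and 4 shared peaks, and Ptprd, a receptor phosphatase gene of synaptic adhesion (2271 kb), had 7 and 2. Cadm2, an immunoglobulin adhesion gene (966 kb), had 6 and 1, Galntl6 (1140 kb) 6 and 3, Naaladl2 (1346 kb) 6 and 0, and Dlg2, a postsynaptic scaffold gene (1973 kb), 6 and 5. B3galt1, a galactosyltransferase gene (557 kb), had 5 MGE-only peaks and no shared one, and Lrba (559 kb) had 5 and 1. Per 100 kb of gene and flank these counts range from 0.301 in Dlg2 to 0.866 in B3galt1. These genes were picked for their counts, and all protein-coding genes above 300 kb had 1.95 MGE-only peaks per Mb.

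**Figure D4:**
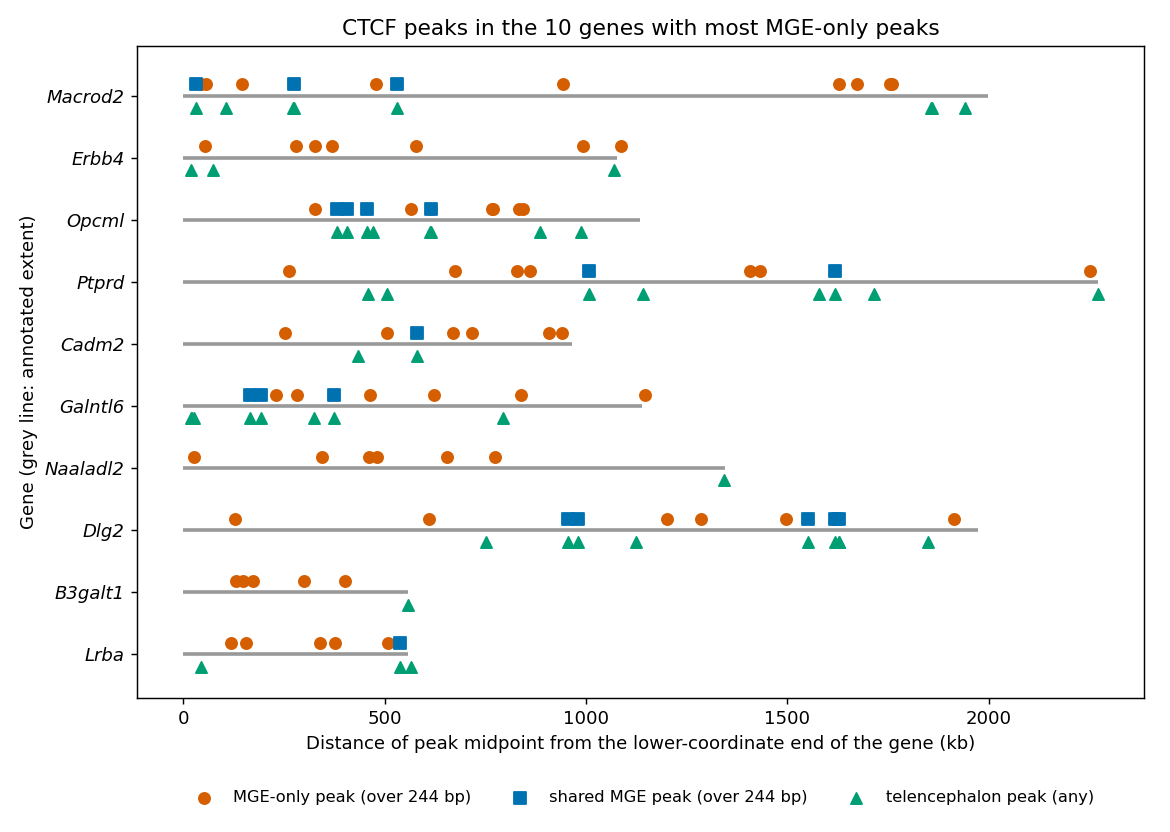
Positions of MGE-only peaks, shared MGE peaks of 245 bp or more and telencephalon peaks of any width along the 10 genes with most MGE-only peaks (rows), as the distance of a peak's midpoint from the lower-coordinate end of the gene (kb, x axis). Each shared mark has an overlapping telencephalon peak, other telencephalon marks have no shared partner of that width, and the 7 MGE-only peaks of Erbb4 have no mark of the other kinds at their positions.

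Few genes of the MGE and of its interneurons had an MGE-only peak, close to the share that genes of their length had. Such a peak lay in or within 10 kb of 4 of 38 genes (10.5%, 2.94 to 24.8%), while protein-coding genes weighted to the same length classes gave 11.2%. Besides Erbb4 these were Gad2, a gene of GABA synthesis (chr2:22689980-22690244, 265 bp, inside the gene), Shh, the ventral morphogen (chr5:28469762-28470045, 284 bp, 2802 bp from the gene), and Satb1, a chromatin organiser of interneurons (chr17:51762173-51762452, 280 bp, inside). All 4 also had a telencephalon peak in the window, at distances of 31623 bp in Gad2, 18274 bp at Shh and 15519 bp in Satb1 from the peak to the nearest one. Lateral and caudal eminence genes had 5 of 24 (20.8%, with 18.1% by length), namely Meis2, Foxp2, Foxp1, Bcl11b and Tshz1, the widest being that of Tshz1 (366 bp). Dorsal and excitatory genes had 3 of 30 (10%, with 12.1% by length), in Pou3f2, Sox5 and Bcl11a, and progenitor genes 2 of 27 (7.41%, with 11%), in Jag1, a Notch ligand gene (309 bp, 477 bp from a gene end), and Nfia, a nuclear factor I gene with 2 peaks.

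Migration and guidance genes had an MGE-only peak in 18 of 46 cases (39.1%, 25.1 to 54.6%), with 32.0% by length. They were the ephrin receptor genes Epha4, Epha5, Epha7, Ephb1 and Ephb2, the netrin receptor genes Dcc and Unc5c, and the slit receptor genes Robo1 and Robo2. Semaphorin genes were Sema3a, Sema3c, Sema5b and Sema6a, beside Nrp1, a co-receptor gene for some semaphorins. The rest were the neuregulin genes Nrg1 and Nrg3, and Dab1 and Cdk5r1. The widest was in Dcc (448 bp, 279507 bp from a telencephalon peak). Epha5 (338 bp) and Cdk5r1, an activator of the kinase Cdk5 (393 bp, 227 bp from the gene), had no telencephalon peak in their windows. Dab1, Nrg3 and Robo2 had 3 MGE-only peaks each.

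Synaptic adhesion genes had the highest share, 22 of 45 (48.9%, 33.7 to 64.2%), with 39.7% by length. The length classes do not separate genes above 300 kb, and some of these genes, such as Ptprd (2271 kb), are far longer. Among them were Adgrl3, Cadm1, Cadm2, Cntn1, Cntn4, Cntn5, Cntnap2, Cntnap4, Dscam, Lrrc4c, Lrrtm4, Lsamp, Ncam1, Negr1, Nlgn1, Nrxn3, Ntm, Opcml, Ptprd, Tenm2 and Tenm3. Lrrc4c, a netrin-G ligand gene, had the widest of these peaks (542 bp, 101443 bp from a telencephalon peak), and all 22 genes had a telencephalon peak somewhere in the window. Cadherin and non-clustered protocadherin genes had 10 of 31 (32.3%, with 29.0% by length): Cdh7, Cdh8, Cdh12, Cdh13, Cdh18, Cdh20, Fat3, Pcdh7, Pcdh9 and Pcdh15. The widest was in Pcdh9 (427 bp). Pcdh9 and Pcdh15 had 4 MGE-only peaks each.

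Neurotransmitter receptor and ion channel genes had 27 of 57 (47.4%, 34.0 to 61.0%), with 40.8% by length. Glutamate receptor genes among them included Gria2, Gria4, Grid1, Grik2, Grin2a, Grin2b, Grin3a, Grm5, Grm7 and Grm8, and GABA receptor genes included Gabra2, Gabra4, Gabra5 and Gabrb2. The channel genes were Cacna1a, Cacna1c, Cacna2d1, Kcnd2, Kcnh7, Kcnip4, Kcnma1, Kcnn2 and Scn3a. The widest peak was in Gabra5 (491 bp, 323 bp from a telencephalon peak). Kcnh7, a potassium channel gene, had 3 MGE-only peaks of 285, 274 and 347 bp and no telencephalon peak in its window.

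Other lists had few. Genes of CTCF and cohesin had 3 of 24 (12.5%, with 12.2% by length), in Zfp143, in Stag1, a cohesin subunit gene (415 bp, the widest), and in Wapl, the cohesin release factor gene (389 bp), which had no telencephalon peak in the window. Cytoplasmic ribosomal protein genes had 2 of 64 (3.12%, with 4.02% by length), Rpl32 (267 bp) and Rps12 (322 bp), although 39 of the 64 had a shared peak. Cell cycle genes had 5 of 40 (12.5%, with 7.02% by length). They were Mki67 (475 bp), Rb1, Ccnb2 (295 bp), Top2a (391 bp) and Cdc20, whose peak is the one at the start of Elovl1. Ccnb2, Top2a and Cdc20 had no telencephalon peak in the window. Markers of vascular and meningeal cells, which a dissection could also hold, had 2 of 20 (10%, with 10.8% by length), the collagen genes Col3a1 (340 bp) and Col1a2. Blood markers had 0 of 16, which allows up to 18.8% at the limit of 3 counts, with 7.57% by length. Every interval of a list covered the share that its gene lengths gave, treating genes as independent.

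**Figure D5:**
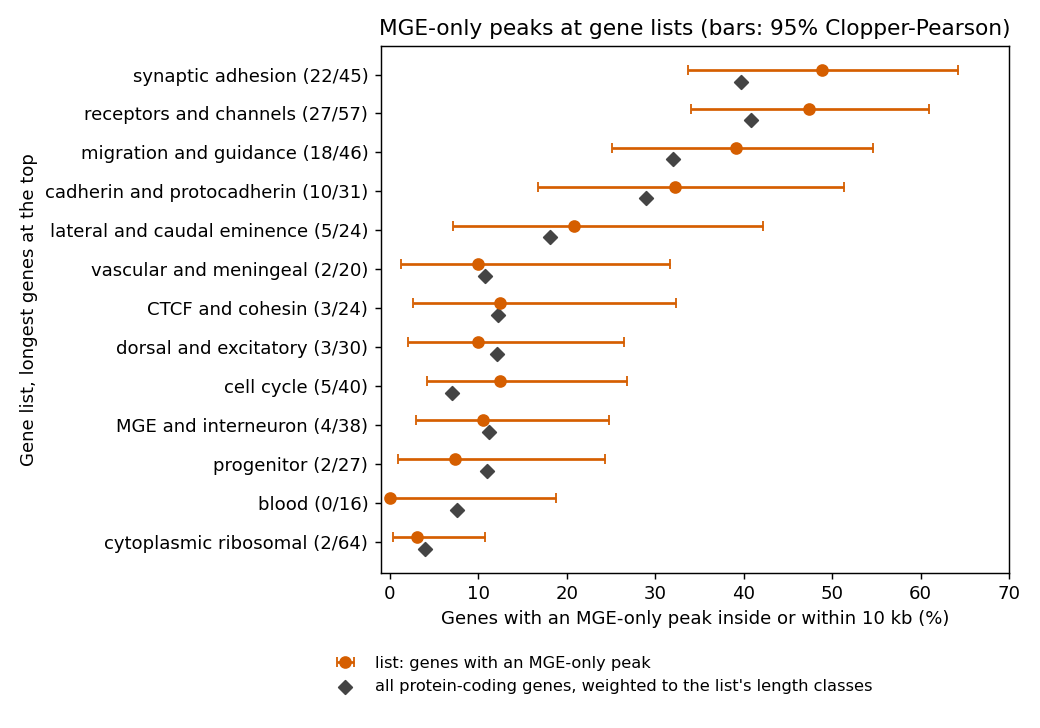
Share of genes with an MGE-only peak inside or within 10 kb (%, x axis) for each gene list (rows, members with a peak over members in brackets), with exact 95% intervals or the limit of 3 counts for blood, beside the share of all protein-coding genes weighted to the list's length classes. Shares run from 0 of 16 for blood to 48.9% for synaptic adhesion, and each length-weighted share lies within its list's interval.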

How the data were processed

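Deposited were lists of CTCF peaks as BED positions (start and end, with no score, count or p-value), 1 per tissue. Per the submitters' processing notes, Bowtie2 2.3.2, MACS2 2.1.1.20160309 and build mm10 were used; the sources used here do not state the calling threshold, control or filters. Per the labels' protocols, the telencephalon and MGE libraries were made with different kits, and all samples carry the same note on MGE dissection. Per the file headers, the track names end in p001 for telencephalon and p01 for MGE, and the telencephalon name begins with e14. Read depth is unknown.

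Positions were made 1-based. Overlaps, gene distances (RefSeq gene table of GRCm38.p6, without exons; strand from the promoter windows, which were used for 18 of the 19 chromosomes) and matches to the core were computed with numpy 2.4.6, pandas 2.3.3 and scipy 1.17.1 and tested on simulated intervals. A gene list's expected share averages, over its members, the share in classes of gene length (borders at 10, 30, 100 and 300 kb). The class above 300 kb has no upper border, so length within it is not accounted for. Named loci are the 12 widest members, the 10 widest at ends of protein-coding genes, the 10 genes with most members, list genes, the 5 largest groups and the 5 members farthest from a telencephalon peak. Members, rules and lists were chosen with earlier results of these data known; densities per Mb and the GC weighting were added after seeing these data. Some genes of the lists are counted but not reported by name here.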

Additional observations from a re-analysis of the deposited data

Results flagged for a closer look

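Chromosome X was outside the rule and held many unshared peaks. In the MGE list 200 of 372 peaks of 245 bp or more on X had no telencephalon partner (53.8%, 48.5 to 58.9%), against 4461 of 17834 on chromosomes 1 to 19 (25.0%, 24.4 to 25.7%). In the telencephalon list the shares were 57.5% on X (158 peaks, 51.4 to 63.4%) and 6565 of 19295 on chromosomes 1 to 19 (34.0%). X was set apart because the rule left it out and its peaks entered no other comparison. The sex of the embryos is not given in the labels, and its part in these shares was not tested.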

How the results depend on the processing

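Raising the width limit to above 300 bp left 2046 MGE-only peaks, and other definitions of a partner or of reach to a gene gave counts between 2768 and 4606. The share of MGE-only peaks at gene ends was 4.07% with ends of 500 bp, 24.8% with 5 kb and 3.72% with protein-coding genes alone, and shared MGE peaks were above it each time (12.8%, 47.7% and 13.4%, and 20.4% above 300 bp). Elsewhere inside genes lay 50.6% of MGE-only peaks with ends of 500 bp, 42.0% with protein-coding genes alone and 47.3% above 300 bp. For shared peaks these shares were 50.1%, 41.5% and 45.6%. Because they leave out gene ends, where fewer MGE-only peaks lay, they do not rank the sets for all positions inside genes. With gene ends counted, 2121 of 3983 MGE-only and 7540 of 13279 shared peaks lay inside genes. Protein-coding genes had an MGE-only peak in 6.74% of cases within the gene body, 19.5% with 50 kb flanks and 5.26% above 300 bp. Above 300 bp the MGE and interneuron list (38 genes) fell to 2.63% and the synaptic adhesion list (45 genes) to 33.3%. The receptor and channel list fell to 35.1%, while the dorsal and excitatory list and the progenitor list kept their shares. Shares expected from gene length were not computed at this limit, and the share of all protein-coding genes fell too, so these falls do not single out any list. Counting gene bodies alone, no cytoplasmic ribosomal gene (0%) had an MGE-only peak. Looser matching gave higher shares of MGE-only windows than the exact core. The core with up to 1 mismatch was in 12.7% of them (5.96 to 22.7%), counting Gm40002 and Gm42111, where it lay outside the peak. It was in 3.34% of windows chosen for having no peak and weighted to the same GC classes. A 7-letter form, which is not the whole core, was in 32.4% of MGE-only windows (21.8 to 44.5%), against 27.5% of those peak-free windows. No paired analysis was possible because each tissue has 1 CTCF library and no result comes from a test. Depth is unknown, so a peak absent from a list may lie below its calling limit.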
